A study of Mus musculus with 12 samples.

Results

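Wild type Ly6G+ cells of mouse bone marrow were set against wild type haematopoietic stem and progenitor cells (HSPC), to follow myeloid maturation where neither population carries a mutation. The comparison rests on 2 RNA sequencing libraries of Ly6G+ cells and 2 of HSPC, and on the genes that reached 1 TPM or more in at least 2 of these 4 libraries. TPM is a gene's share of a library's transcripts after correction for transcript length. The rule kept 11493 of the 28987 genes listed, of which 9993 reached 1 TPM in all 4 libraries. Podxl lay just inside the limit, with 0.00838 and 0.0458 TPM in Ly6G+ cells and 1.34 and 1.00241 TPM in HSPC. Tbc1d9 lay just outside it, with 1.07 and 0.99985 TPM in Ly6G+ cells and 0.423 and 0.416 TPM in HSPC. All mice were C57BL/6, and marrow was taken from individual animals, whose age is not given in the sources used here. The labels' protocol describes FACS sorting of Ly6G+ cells for mutant cells only, so how the wild type Ly6G+ cells were purified is not stated. HSPC were purified by positive selection for CD117, the receptor encoded by Kit. Cell type and any difference in the way of purification thus cannot be told apart here. The sources used here do not say which mouse gave which library, so the p-values measure the spread between these libraries, which may be technical. The series, of 12 libraries in all, also holds Ly6G+ cells and HSPC of CBL/RUNX1 double mutant mice and HSPC of RUNX1 mutant and CBL mutant mice, again 2 libraries each.

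Neutrophils arise in the marrow from dividing progenitors and make their granule proteins in waves. Promyelocytes fill the primary granules with serine proteases and myeloperoxidase, myelocytes fill the secondary granules with lactoferrin and antimicrobial peptides, and later stages make the tertiary granules and the receptors that guide and activate the mature cell. Cell division ends around the myelocyte stage. Transcription factors of the C/EBP family and PU.1, the product of Spi1, drive these genes, while MYC drives growth and the making of ribosomes.

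Short promoter stretches are shown for 3 primary granule genes, 3 secondary granule genes, 1 late maturation gene and both calprotectin genes. The results below turn on these genes, and only genes whose window holds a match are shown. A RefSeq window from 250 bases before to 50 bases after the gene start (build GRCm38.p6) was found for 8741 of the genes tested. Each stretch has 60 bases, 5′ to 3′ on the gene's strand, and capitals mark a match to GAGGAAGT, a PU.1-type motif, or to TTGCNNAA, a C/EBP-type motif, searched on both strands.
Elane (chr10:79886201-79886260, plus strand): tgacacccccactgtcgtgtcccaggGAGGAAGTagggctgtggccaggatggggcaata
Prtn3 (chr10:79879546-79879605, plus strand): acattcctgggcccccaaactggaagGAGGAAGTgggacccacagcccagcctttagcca
Mpo (chr11:87793534-87793593, plus strand): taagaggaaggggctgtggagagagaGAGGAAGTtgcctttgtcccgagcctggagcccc
Ltf (chr9:111019191-111019250, plus strand): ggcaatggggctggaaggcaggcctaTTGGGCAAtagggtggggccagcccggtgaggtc
Ngp (chr9:110419644-110419703, plus strand): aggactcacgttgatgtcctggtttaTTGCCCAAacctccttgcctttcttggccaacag
Lcn2 (chr2:32387922-32387981, minus strand): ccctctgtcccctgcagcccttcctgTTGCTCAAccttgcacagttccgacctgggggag
Mmp8 (chr9:7558369-7558428, plus strand): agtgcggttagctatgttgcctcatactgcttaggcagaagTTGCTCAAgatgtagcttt
S100a9 (chr3:90695912-90695971, minus strand): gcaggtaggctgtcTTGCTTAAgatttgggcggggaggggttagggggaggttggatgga
S100a8 (chr3:90668873-90668932, plus strand): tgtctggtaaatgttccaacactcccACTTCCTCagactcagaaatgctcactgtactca
The matches in Ltf and S100a8 lie on the opposite strand. The PU.1-type letters were in the windows of 4 of 12 primary granule genes (33.3%), against 3.69% of all 27025 genes with a window and 4.16% of the 8741 tested genes with one, and in 2 of 11 secondary granule genes (18.2%). The C/EBP-type letters were in 3 of 11 secondary granule genes (27.3%), 4 of 11 tertiary granule and late maturation genes (36.4%) and 3 of 12 primary granule genes (25%), against 12.2% of all and 10.4% of the tested genes. CACGTG, a MYC-type motif, was in 6 of 26 ribosome biogenesis genes (23.1%) and 3 of 11 tertiary granule and late maturation genes (27.3%), against 8.09% of all and 12.1% of the tested genes. The windows of Ctsg, Camp and Chil3 held none of the 3 motifs, and neither did those of Cxcr2, Csf3r, Il1b, Clec4d and Ccl6. Those of Retnlg, Ly6g and Ms4a3 held the C/EBP-type letters, and that of Ly6g also the PU.1-type ones. These shares are descriptions with no test, and a match is not evidence of binding. Over the genes called below, each motif was in windows of both directions, the PU.1-type one in 5.41% of those higher and 3.12% of those lower in Ly6G+ cells. The C/EBP-type one was in 11.7% and 10.3%, and the MYC-type one in 10.9% and 13%.

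The labels were checked against marker genes. Ly6g, which encodes the antigen that names the Ly6G+ cells (chr15:75155240-75159126), had 2017 and 2026 TPM in Ly6G+ cells and 482 and 504 TPM in HSPC. Its log2 fold change was 2.09 ± 0.14 (SE, limma, adjusted p = 1.67e-05). Ly6g was thus higher in the population named for it, and was also well above the level of the progenitor markers in HSPC. Kit had 8.93 and 13.3 TPM in Ly6G+ cells and 25.6 and 24.5 TPM in HSPC, and Cd34, another progenitor surface marker, had 5.34 and 5.37 TPM in Ly6G+ cells and 23.4 and 22.6 TPM in HSPC. Both fell, Kit by 1.07 ± 0.19 (SE, adjusted p = 0.00261) and Cd34 by 1.86 ± 0.11 (SE, adjusted p = 8.91e-06) on the log2 scale. Gata2, a progenitor and basophil transcription factor, overlapped, with 6.84 and 4.86 TPM in Ly6G+ cells and 5.37 and 4.82 TPM in HSPC (adjusted p = 0.272, and adjusted p = 0.024 without Ly6G+ library 2). S100a8 and S100a9, which encode the 2 subunits of calprotectin, took 34.5% and 33.5% of the summed TPM in Ly6G+ cells and 28.9% and 31.4% in HSPC. Both populations therefore held neutrophil transcripts in large amounts, and the comparison sets Ly6G+ cells against a CD117-enriched population that shares them. The part of this overlap in the results below was not tested. In bulk libraries such as these, fewer cells of a type and less RNA per cell cannot be told apart.

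**Figure D1:**
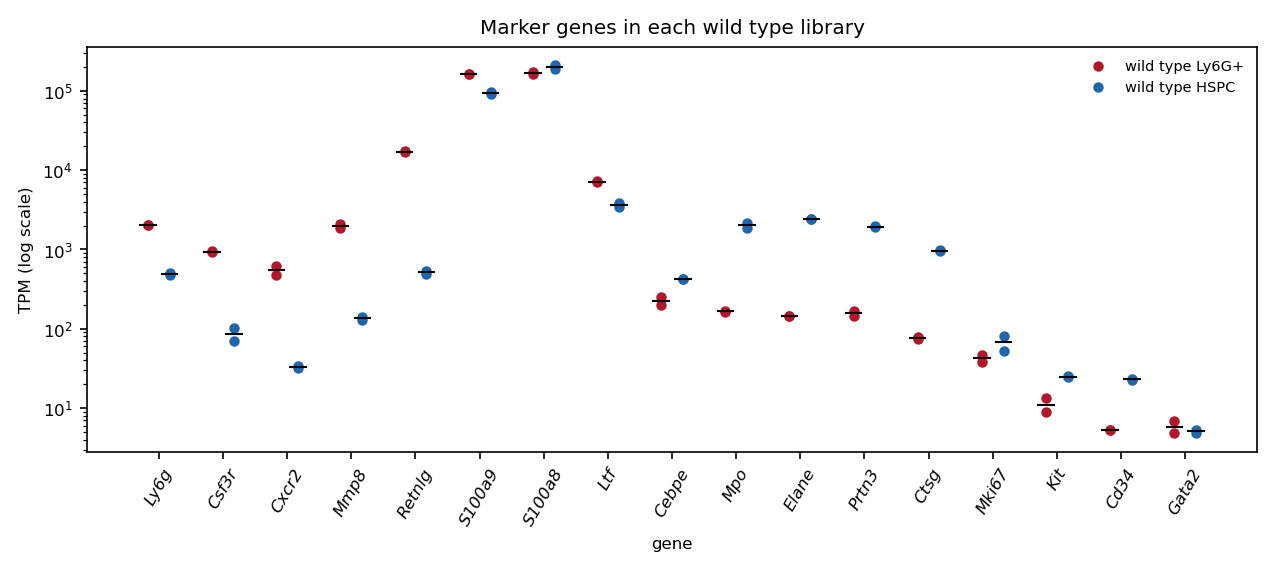
TPM (log scale) of 17 marker genes in the 2 Ly6G+ libraries (red, left of each pair) and the 2 HSPC libraries (blue, right) of wild type mice, with black lines for the means of 2. Ly6g, Csf3r, Cxcr2, Mmp8 and Retnlg are higher in Ly6G+ cells, Mpo, Elane, Prtn3 and Ctsg are higher in HSPC, and S100a8 and Gata2 lie close together.

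Most genes differed between the populations beyond the spread of the replicates. Of 11493 genes, 4165 (36.2%) were called higher and 4090 (35.6%) lower in Ly6G+ cells, 71.8% in all (limma on log2(TPM + 1), Benjamini-Hochberg adjusted p under 0.05). The median log2 fold change of all genes was -0.002, and log2 values of replicates differed with an SD over genes of 0.319 in Ly6G+ cells and 0.261 in HSPC. Against a change of more than a log2 of 1, 971 genes (8.45%) were called higher and 490 (4.26%) lower. A fit of all 12 libraries, whose spread includes that of the mutant groups, called 2642 higher (23%) and 2622 lower (22.8%). Of its 5264 calls (45.8%), 5239 were also called by the 4 libraries, all in the same direction. Its fold changes come from the same 4 wild type libraries, apart from the scaling, so the shared direction is no further support. Removing the trend on transcript length, described further on, gave 4113 higher (35.8%) and 4174 lower (36.3%), 72.1% in all. Of 569 genes that reached 1 TPM in both Ly6G+ libraries and in no HSPC library, 544 were called higher, and of 340 with the opposite pattern 286 were called lower; for these genes the rule of inclusion itself requires a difference. With such a background, a list is described by its count and its median. Each list below is to be read against 36.2% higher, 35.6% lower and a median of -0.002 for all genes. With all 12 libraries these shares are 23% and 22.8%.

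Primary granule genes formed the group with the lowest median, -2.91 against -0.002 for all genes: of 14 measured, 11 fell and 1 rose (11 of 14 lower, against 35.6% of all genes). Elane, which encodes neutrophil elastase (chr10:79886247-79888215), had 145 and 146 TPM in Ly6G+ cells and 2450 and 2395 TPM in HSPC. Its log2 fold change was -3.99 ± 0.13 (SE, adjusted p = 9.73e-07), and the lowest HSPC library was far above both Ly6G+ ones. Mpo, the myeloperoxidase gene (chr11:87793581-87804413), had 169 and 163 TPM in Ly6G+ cells and 2188 and 1867 TPM in HSPC (-3.54 ± 0.12 SE, adjusted p = 1.06e-06). The genes of proteinase 3 and cathepsin G, Prtn3 and Ctsg, had log2 fold changes of -3.55 and -3.58. Together these 4 genes took 0.0551% and 0.0561% of the TPM in Ly6G+ cells and 0.778% and 0.732% in HSPC. Ms4a3, a membrane protein gene of granulocyte and monocyte progenitors, fell by 3.46, the serine protease gene Prss57 by 2.68 and Fcnb, which encodes ficolin B, by 1.43 on the log2 scale. Not all members fell: the hexokinase gene Hk3 rose by 0.71, and Ctsc, whose product activates the granule proteases, had 22.4 and 33.0 TPM in Ly6G+ cells and 27.3 and 24.4 TPM in HSPC (adjusted p = 0.556, and adjusted p = 0.00771 without Ly6G+ library 1). Serpinb1a, an inhibitor of those proteases, was also not called, with 277 and 387 TPM in Ly6G+ cells and 406 and 408 TPM in HSPC. In the fit of all 12 libraries 10 members were lower and none higher.

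Secondary granule genes differed less. Of 14, 8 rose and 1 fell, with a median of 0.85, and in the fit of all 12 libraries none was called either way. Ltf, the lactoferrin gene, had 7037 and 7306 TPM in Ly6G+ cells and 3823 and 3445 TPM in HSPC, 1.04 ± 0.15 on the log2 scale (SE, adjusted p = 0.000474, and adjusted p = 0.303 with all 12 libraries). Olfm4, which encodes olfactomedin 4 and marks a subset of neutrophils, had the highest log2 fold change of the list, 2.32 ± 0.27 (SE). Lyz2, the lysozyme gene, rose by 1.13 and Lcn2, the gene of the iron-binding lipocalin 2, by 0.75, a call lost without Ly6G+ library 2 (adjusted p = 0.105). Camp and Ngp, which encode antimicrobial proteins of this class, were not called. Camp, the cathelicidin gene, had 14703 and 15999 TPM in Ly6G+ cells and 14732 and 15645 TPM in HSPC (0.07 ± 0.18 SE). Ngp, the neutrophilic granule protein gene, had 21728 and 22877 TPM in Ly6G+ cells and 19672 and 19511 TPM in HSPC (0.25 ± 0.18 SE, adjusted p = 0.237, and adjusted p = 0.0109 with unscaled TPM and adjusted p = 0.0428 with the length correction). Both genes were among the most abundant of either population. Cebpe, which encodes the transcription factor C/EBPε of secondary granule formation, was the member that fell, with 199 and 254 TPM in Ly6G+ cells and 428 and 420 TPM in HSPC (-0.85 ± 0.16 SE, adjusted p = 0.00192, and adjusted p = 0.379 with all 12 libraries).

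All 14 tertiary granule and late maturation genes rose, with a median of 2.86, and 8 of them were called with all 12 libraries. Retnlg, which encodes a resistin-like secreted protein (chr16:48872621-48874496), had 17337 and 16834 TPM in Ly6G+ cells and 497 and 530 TPM in HSPC. This rise, 5.11 ± 0.16 on the log2 scale (SE, adjusted p = 8.71e-07), was the highest of the list, and Retnlg was among the most abundant genes of Ly6G+ cells. Mmp8, the neutrophil collagenase gene, had 1888 and 2119 TPM in Ly6G+ cells and 140 and 131 TPM in HSPC (3.93 ± 0.13 SE), and Mmp9, the gelatinase B gene that defines tertiary granules, had 2160 and 2390 TPM in Ly6G+ cells and 243 and 209 TPM in HSPC (3.39 ± 0.13 SE). Arg2, an arginase gene, rose by 4.55, Adam8, a membrane protease gene, by 3.74 and Mxd1, whose product opposes MYC at its target sites, by 2.99. Padi4, the enzyme that citrullinates histones in neutrophils, rose by 1.5 and Itgam and Itgb2, the subunits of the integrin Mac-1, by 1.57 and 1.43. Cd177 and Pglyrp1 had the smallest log2 fold changes of the list, 0.77 and 0.73. Over the 3 lists, the medians thus ran from -2.91 to 0.85 and 2.86. The lists also hold genes of other proteins, such as Cebpe and Mxd1, and were chosen with earlier results of these data known. The order of the medians is therefore a description.

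**Figure D2:**
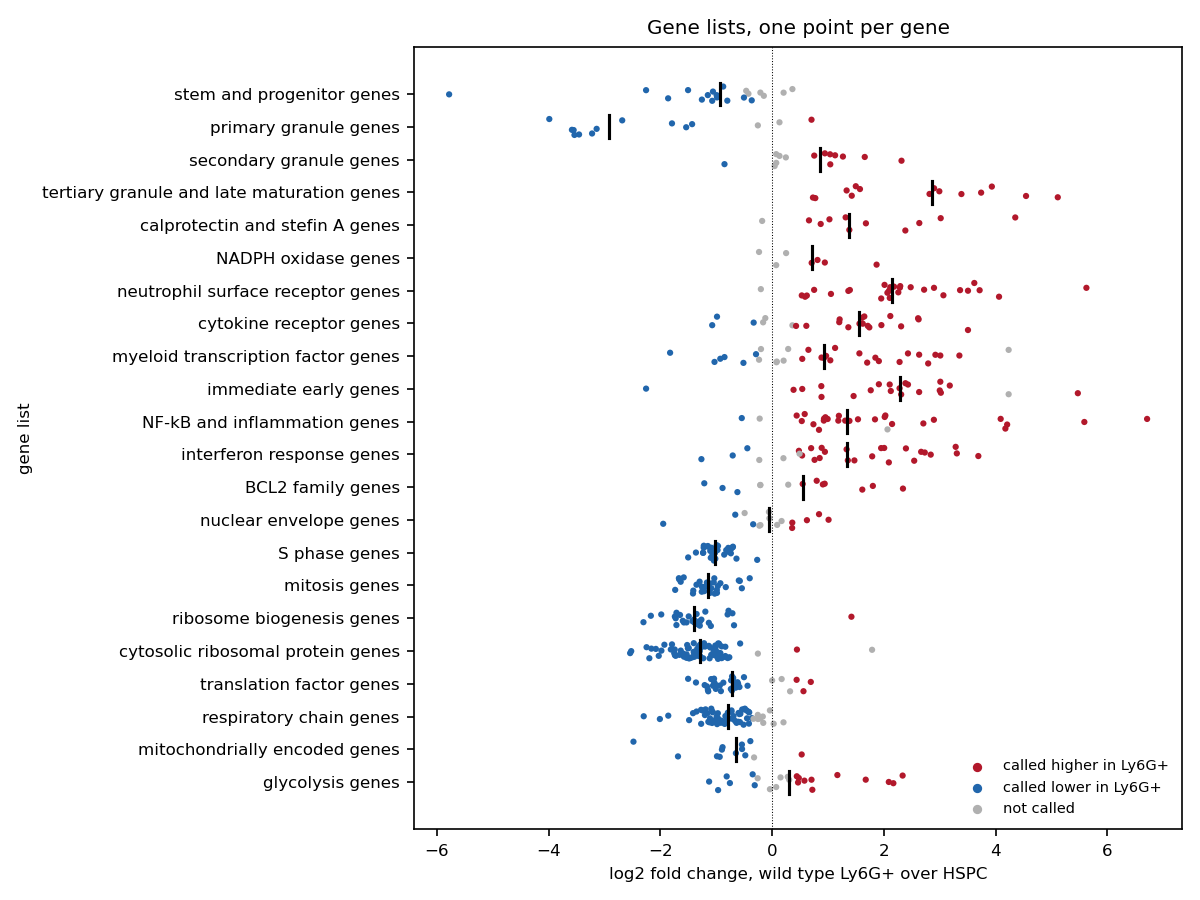
Log2 fold change of wild type Ly6G+ cells over HSPC for each tested member of 22 gene lists, 1 point per gene, with black bars for list medians; red and blue points passed the adjusted p threshold of 0.05 and grey points did not. Most primary granule genes lie left of 0, most secondary granule genes around or right of it and tertiary granule and late maturation genes right of it. Rps12, listed at 0 in 1 HSPC library, is left out.

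Surface receptors of neutrophils rose almost as a block: of 28 tested, 27 were called higher and none lower, with a median of 2.15, and 20 were called higher with all 12 libraries. Cxcr2, the receptor for CXC chemokines that draws neutrophils out of the marrow, had 477 and 624 TPM in Ly6G+ cells and 33.8 and 32.3 TPM in HSPC, a log2 fold change of 4.06 ± 0.16 (SE). Clec4d, a C-type lectin receptor for fungal and mycobacterial glycolipids (chr6:123262111-123275265), had 222 and 227 TPM in Ly6G+ cells and 3.74 and 3.73 TPM in HSPC, the highest log2 fold change of the list at 5.63 ± 0.10 (SE). The groups overlapped in neither gene, as in 84.7% of all genes tested. The β-glucan receptor gene Clec7a rose by 3.72, the formyl peptide receptor gene Fpr1 by 3.62 and the complement receptor gene C5ar1 by 2.48. Cxcr4, whose product holds neutrophils in the marrow, rose by less, with 300 and 289 TPM in Ly6G+ cells and 147 and 148 TPM in HSPC (1.05 ± 0.12 SE). The inhibitory Fc receptor gene Fcgr2b was the member not called, with 55.4 and 59.5 TPM in Ly6G+ cells and 76.2 and 62.4 TPM in HSPC (adjusted p = 0.111, and adjusted p = 0.0147 for a lower level with upper-quartile scaling). Of the 30 receptors listed, Mrgpra2a and Mrgpra2b were not analysed here.

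Cytokine receptors moved in the same direction in 17 of 23 tested genes, with 3 lower and a median of 1.56. Csf3r, the receptor of granulocyte colony-stimulating factor, had 920 and 962 TPM in Ly6G+ cells and 102 and 71.2 TPM in HSPC (3.51 ± 0.14 SE, adjusted p = 1.61e-06). Il17ra rose by 2.61, Il10ra by 2.62 and the shared β chain gene Csf2rb by 1.71. Kit, as above, Epor, the erythropoietin receptor (-0.99), and Il3ra, the interleukin 3 receptor α chain (-0.33, with 14.6 and 13.4 TPM in Ly6G+ cells and 18.8 and 18.3 TPM in HSPC), were the 3 that fell. All 3 calls were lost with all 12 libraries, which called 16 members higher. Il3ra also lost its call without Ly6G+ library 1 (adjusted p = 0.0708), Ly6G+ library 2 (adjusted p = 0.155) or HSPC library 2 (adjusted p = 0.118).

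Calprotectin, stefin A and annexin genes rose in 10 of 11 cases, with a median of 1.38. S100a9 had 163866 and 165231 TPM in Ly6G+ cells and 91205 and 96496 TPM in HSPC (0.87 ± 0.21 SE on the log2 scale, adjusted p = 0.00653). Its partner S100a8 had 174061 and 164063 TPM in Ly6G+ cells and 189735 and 209223 TPM in HSPC (-0.18 ± 0.22 SE, adjusted p = 0.489). In the deposited TPM, the libraries of the 2 groups did not overlap for either gene and lay on opposite sides. The same lack of overlap held for 84.7% of all genes tested. The fit used TPM divided by factors of 0.991 and 0.968 in Ly6G+ cells and 1.099 and 0.949 in HSPC. On that scale Ly6G+ library 1 lies above HSPC library 1 for S100a8, so the groups overlap for this gene. The call of S100a9 was lost without Ly6G+ library 1 (adjusted p = 0.11), without Ly6G+ library 2 (adjusted p = 0.131) and with all 12 libraries (adjusted p = 0.374). S100a8 was called lower without HSPC library 1 (-0.40, adjusted p = 0.0246) and with unscaled TPM (-0.24, adjusted p = 0.00304). S100a6, a related calcium-binding protein gene, rose by 3.02, and Stfa2l1, a cysteine protease inhibitor of the stefin A cluster, by 4.35. Reads of the near-identical stefin genes can be shared among members. Of 7 genes of the NADPH oxidase, which makes superoxide in phagocytes, 4 rose and none fell, with a median of 0.71. Ncf1, the p47phox subunit, rose by 0.81 and the small GTPase gene Rac2 by 0.94, whereas the membrane subunits had similar levels: Cybb had 604 and 618 TPM in Ly6G+ cells and 606 and 472 TPM in HSPC, and Cyba had 1045 and 1135 TPM in Ly6G+ cells and 1119 and 1040 TPM in HSPC. With all 12 libraries, 1 oxidase gene and 5 genes of the calprotectin, stefin A and annexin list were called higher.

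Stem and progenitor genes were lower. Of 26 written, 6 lay under the level needed for testing, Mycn and Hoxa5 among them. Of the 20 tested 14 fell and none rose, with a median of -0.93, and 6 were lower with all 12 libraries. Without Ly6G+ library 2, 2 members were called higher, and among genes at 1 TPM or more in all 4 libraries 9 were lower. Myc had 8.54 and 6.15 TPM in Ly6G+ cells and 42.1 and 38.0 TPM in HSPC (-2.26 ± 0.14 SE). The cell cycle kinase gene Cdk6 fell by 1.5, the transcription factor gene Myb by 1.26 and its fellow Lmo2 by 0.99. Hlf, a gene of long-term stem cells, was near 1 TPM in both groups, with 0.920 and 1.04 TPM in Ly6G+ cells and 1.29 and 1.20 TPM in HSPC (adjusted p = 0.422). Meis1, a partner of HOX proteins, had 0.405 and 0.557 TPM in Ly6G+ cells and 1.5 and 1.75 TPM in HSPC, and its fold change is compressed by the 1 TPM added before the logarithm. Mecom was the exception in size and is described with the leading genes below.

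Myeloid transcription factors went both ways, with 18 of 31 higher, 6 lower and a median of 0.93; 11 were higher and 1 lower with all 12 libraries. Within the C/EBP family, Cebpb had 231 and 123 TPM in Ly6G+ cells and 22.7 and 21.9 TPM in HSPC (2.92 ± 0.32 SE, adjusted p = 0.00199). Cebpd rose by 1.70 ± 0.14 (SE), whereas Cebpe fell, as given above, so these members differed in direction. Cebpa, the factor of early granulocyte commitment, fell by 0.29 ± 0.11 (SE, adjusted p = 0.0432), a call lost without Ly6G+ library 1 (adjusted p = 0.401), HSPC library 1 (adjusted p = 0.0832) or HSPC library 2 (adjusted p = 0.132). Gfi1, a repressor needed for neutrophil differentiation, had 11.9 and 13.5 TPM in Ly6G+ cells and 51.9 and 47.3 TPM in HSPC (-1.83 ± 0.11 SE). Rara, the retinoic acid receptor α gene, had 47.9 and 56.0 TPM in Ly6G+ cells and 5.03 and 3.78 TPM in HSPC (3.35 ± 0.13 SE). Spi1 rose by 0.93, Klf2 by 2.43 and Junb by 3.01. Runx1, a core factor of blood formation, was not called, with 11.1 and 8.77 TPM in Ly6G+ cells and 12.7 and 11.3 TPM in HSPC, and neither was Irf8, a monocyte lineage factor, with 41.0 and 36.8 TPM in Ly6G+ cells and 41.5 and 35.04 TPM in HSPC.

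Every one of the 30 S phase genes and the 30 mitosis genes fell, with medians of -1.02 and -1.14, and 24 of each list were lower with all 12 libraries. Pcna, the sliding clamp of DNA replication, had 143 and 118 TPM in Ly6G+ cells and 299 and 286 TPM in HSPC. Plk1, a mitotic kinase, had 21.0 and 17.2 TPM in Ly6G+ cells and 71.3 and 65.3 TPM in HSPC, the lowest log2 fold change of its list at -1.73 ± 0.11 (SE). Both genes were still measured in Ly6G+ cells at well above 1 TPM. Ube2c, which tags mitotic proteins for degradation, fell by 1.67, the spindle checkpoint gene Bub1b by 1.66 and the replication licensing gene Mcm5 by 1.22. Mki67, a proliferation marker, had 46.5 and 38.0 TPM in Ly6G+ cells and 82.2 and 52.8 TPM in HSPC (-0.58 ± 0.16 SE, adjusted p = 0.0175). Its call was lost without Ly6G+ library 2 (adjusted p = 0.121), without HSPC library 1 (adjusted p = 0.0634), with no filter (adjusted p = 0.0595) and with all 12 libraries (adjusted p = 0.2).

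Genes of the protein-making machinery fell together. Of 76 cytosolic ribosomal protein genes tested 72 fell and 2 rose, with a median of -1.30, and they took 4.06% and 3.48% of the TPM in Ly6G+ cells and 9.12% and 9.33% in HSPC. Of the 2 that rose, Rps12 has an uncertain direction, given with its copy below, and Rpl10 rose by 0.45, a call lost without Ly6G+ library 1 (adjusted p = 0.0592), without HSPC library 2 (adjusted p = 0.0848), with upper-quartile scaling (adjusted p = 0.0516) and with all 12 libraries (adjusted p = 0.153). Rps28 had 316 and 299.8 TPM in Ly6G+ cells and 1894 and 1852 TPM in HSPC, the lowest log2 fold change of the list at -2.54 ± 0.13 (SE). Of 30 ribosome biogenesis genes 29 fell and 1 rose, with a median of -1.39. Gar1, a component of the complexes that modify ribosomal RNA, had 20.0 and 21.0 TPM in Ly6G+ cells and 113 and 106 TPM in HSPC (-2.30 ± 0.10 SE), and Fbl, the gene of the rRNA methyltransferase fibrillarin, fell by 1.71. Polr1a, the largest subunit of RNA polymerase I, was the member that rose, with 21.4 and 19.5 TPM in Ly6G+ cells and 8.34 and 6.44 TPM in HSPC. Of 34 translation factors 28 fell and 3 rose, with a median of -0.73. Eif3i and Eif3b, subunits of the initiation factor eIF3, fell by 1.5 and 1.36, while the helicase gene Eif4a2 rose by 0.69 and its paralog Eif4a1 fell by 1.04. With all 12 libraries 66 ribosomal protein, 28 biogenesis and 23 translation factor genes were lower.

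Respiratory chain genes also fell, 54 of 63 with none higher and a median of -0.79 (47 lower with all 12 libraries). Atp5g1, a subunit of the ATP synthase rotor, had 33.7 and 29.4 TPM in Ly6G+ cells and 165 and 166 TPM in HSPC (-2.30 ± 0.12 SE). Of the 4 subunits of complex II 3 were not called, among them Sdhb with 60.2 and 59.7 TPM in Ly6G+ cells and 63.7 and 58.9 TPM in HSPC. Of the 13 protein genes encoded in the mitochondrial genome 11 fell and 1 rose, with a median of -0.65, and they took 1.34% and 1.39% of the TPM in Ly6G+ cells and 2.41% and 2.35% in HSPC. Without Ly6G+ library 1, 7 of them were called lower. Glycolysis genes were split, with 11 of 23 higher, 6 lower and a median of 0.31, against 36.2% higher and 35.6% lower of all genes. The glucose transporter gene Slc2a3 (2.34), the lactate exporter gene Slc16a3 (2.17), the glycogen phosphorylase gene Pygl (1.68) and the regulatory kinase gene Pfkfb4 (2.09) rose, whereas the triosephosphate isomerase gene Tpi1 (-1.13) and the phosphofructokinase genes Pfkl (-0.97) and Pfkm (-0.81) fell. With all 12 libraries 4 were higher and 3 lower.

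Transcript length moved with these results. Over 11315 genes with an annotated length, the log2 fold change and the length had a Spearman rho of 0.137, and over 75 ribosomal protein genes without Rps12 one of 0.315; both are descriptions across genes that share the same 4 libraries. The median log2 fold change was -0.03 for the 448 genes under 500 bases, -0.22 for genes of 500 to 1000 bases and -0.10 for 1000 to 2000. It was 0.06 for 2000 to 4000 and 0.23 for genes over 4000 bases, so the shortest class did not have the lowest median. The difference between the 2 HSPC replicates also moved with length, being -0.095 under 500 bases and 0.086 over 4000 bases. Between the 2 Ly6G+ replicates it was 0.037 and 0.015. Length thus went with differences within HSPC as well as between the cell types. Short and long genes of the same mitochondrial transcript differed: mt-Atp8 had a log2 fold change of -2.48 and mt-Atp6, with which it shares a transcript, one of -0.94, while mt-Nd4l had 0.53 and mt-Nd4 had -0.39, the last not called without Ly6G+ library 1 (adjusted p = 0.31) or Ly6G+ library 2 (adjusted p = 0.099). After removing the trend on length from each library, the median of the ribosomal protein genes was -1.14, that of the respiratory chain genes -0.65 and that of the mitochondrially encoded genes -0.50. The part of length in these results beyond that was not tested.

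**Figure D3:**
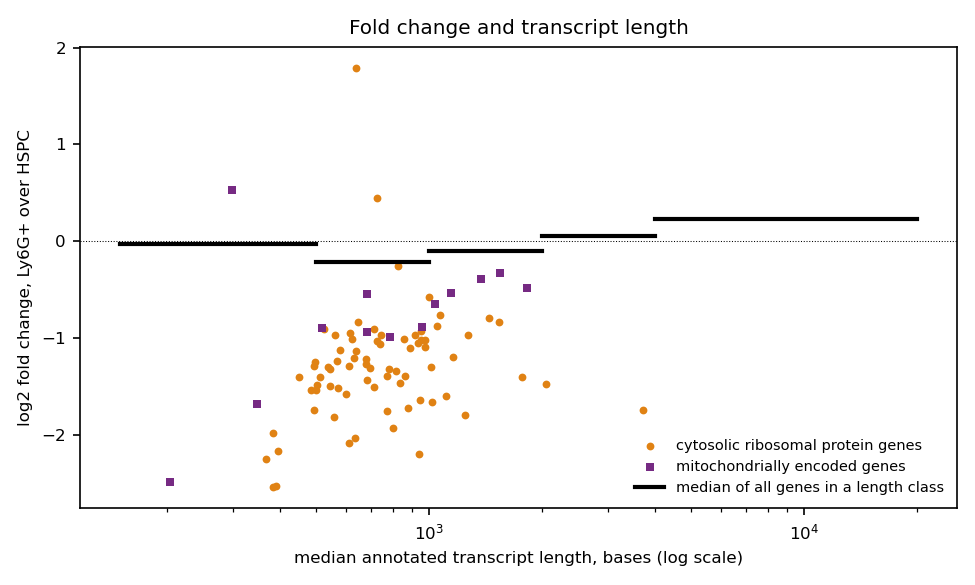
Log2 fold change of wild type Ly6G+ cells over HSPC against median annotated transcript length in bases (log scale) for cytosolic ribosomal protein genes (orange) and mitochondrially encoded genes (purple squares), with black bars for the median of all genes in each length class. The bars lie at -0.03 under 500 bases, at -0.22 for 500 to 1000 bases and at 0.23 over 4000 bases, and most ribosomal protein genes lie below the bar of their class.

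Genes of inflammation rose. Of 28 NF-kB and inflammation genes tested 25 were higher and 1 lower, with a median of 1.35, and 19 were higher with all 12 libraries. Il1b, which encodes interleukin 1β (chr2:129364570-129371139), had 648 and 343 TPM in Ly6G+ cells and 3.62 and 3.71 TPM in HSPC (6.71 ± 0.34 SE on the log2 scale, adjusted p = 0.000227). Its receptor antagonist gene Il1rn had 206 and 191 TPM in Ly6G+ cells and 10.02 and 10.4 TPM in HSPC (4.21 ± 0.11 SE), so ligand and antagonist were both higher. Nlrp3, the inflammasome sensor gene, rose by 4.18 and the neutrophil chemoattractant gene Cxcl2 by 4.09. Nlrp3 had 0.709 and 0.852 TPM in HSPC. It was thus included through the Ly6G+ libraries alone, and that rule itself requires a difference. Sod2, the mitochondrial superoxide dismutase gene, was the member that fell, by 0.54. Of 21 immediate early genes 19 rose and 1, Myc, fell, with a median of 2.28 (16 higher and 1 lower with all 12 libraries). Dusp1, a phosphatase of stress kinases, had 289 and 114 TPM in Ly6G+ cells and 3.17 and 3.37 TPM in HSPC (5.47 ± 0.56 SE, adjusted p = 0.0055). Fos had 304 and 46.7 TPM in Ly6G+ cells and 7.38 and 4.30 TPM in HSPC and was not called (adjusted p = 0.0851). It was called higher with all 12 libraries (adjusted p = 0.00746), without Ly6G+ library 1 (adjusted p = 0.000193) and without Ly6G+ library 2 (adjusted p = 3.99e-05). Library 1 of the Ly6G+ cells was the higher one for Il1b, Dusp1 and Fos, though both were above both HSPC libraries.

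Of 28 interferon response genes tested 22 rose and 3 fell, with a median of 1.35, and 14 were higher and 1 lower with all 12 libraries. Oasl2 had 95.7 and 127 TPM in Ly6G+ cells and 7.82 and 8.08 TPM in HSPC (3.69 ± 0.17 SE), and Irf7, the factor that amplifies interferon production, rose by 2.54 ± 0.11 (SE). Ifitm1, of a family of membrane proteins that restrict viral entry, rose by 2.73. Gbp3, a guanylate-binding protein gene, fell by 1.27 and Bst2, the tetherin gene, by 0.71, and Mx1 overlapped, with 4.65 and 3.79 TPM in Ly6G+ cells and 7.06 and 3.96 TPM in HSPC.

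Within the BCL2 family, which sets the threshold for cell death, 7 of 13 tested genes rose and 3 fell, with a median of 0.55. Mcl1, the survival factor that neutrophils depend on, had 371 and 374 TPM in Ly6G+ cells and 81.4 and 70.4 TPM in HSPC (2.34 ± 0.10 SE). The effector genes Bax and Bak1 fell by 1.21 and 0.89, while the pro-death BH3 genes Pmaip1 and Bmf rose by 1.8 and 1.62. The pro-death genes named here thus went in both directions, and 5 members of the family were higher and 2 lower with all 12 libraries. Nuclear envelope genes, which shape the lobed nucleus, showed no common direction, with 5 of 15 higher, 3 lower and a median of -0.05. Of all genes, 36.2% were higher and 35.6% lower. Lbr, the lamin B receptor gene needed for lobing, had 219.5 and 233 TPM in Ly6G+ cells and 125 and 109 TPM in HSPC (1.01 ± 0.11 SE), and Banf1, a chromatin-bridging protein gene, fell by 1.95. With all 12 libraries 1 member was higher and 1 lower, and 3 were higher without Ly6G+ library 1, HSPC library 1 or HSPC library 2.

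The 12 genes with the highest log2 fold changes among named, non-immunoglobulin genes included Il1b, Clec4d, Dusp1 and Retnlg above. Pla2g7, the platelet-activating factor acetylhydrolase gene, had 123 and 147 TPM in Ly6G+ cells and 0.933 and 0.797 TPM in HSPC (6.22 ± 0.12 SE, adjusted p = 2.45e-07). The CC chemokine gene Ccl6 had 1088 and 868 TPM in Ly6G+ cells and 20.5 and 19.6 TPM in HSPC (5.59 ± 0.13 SE). Cd101, a surface protein that marks the last stage of neutrophil maturation, had 73.0 and 55.2 TPM in Ly6G+ cells and 0.899 and 0.536 TPM in HSPC (5.29 ± 0.15 SE). The rule that listed these 3 genes requires a call and no overlap between the groups, so their separation is not a further result. Cd300ld, Adam19 and Lilra6 had log2 fold changes of 5.40, 5.16 and 5.0. Pla2g7, Cd101 and Adam19, and Thbs1 below, had under 1 TPM in both HSPC libraries. For these genes the rule of inclusion itself requires a difference. Thbs1, the thrombospondin 1 gene, had 183 and 45.5 TPM in Ly6G+ cells and 0.657 and 0.709 TPM in HSPC (5.82 ± 0.88 SE, adjusted p = 0.0202, and adjusted p = 0.072 without HSPC library 1). Rps12 is listed at 410 and 702 TPM in Ly6G+ cells and at 0 and 2.17e-08 TPM in HSPC, so no fold is given. Its copy Rps12-ps3 is listed at 748 and 366 TPM in Ly6G+ cells and 2884 and 2876 TPM in HSPC. The sum of both was 1158 and 1068 TPM in Ly6G+ cells and 2884 and 2876 TPM in HSPC, so the direction of Rps12 is uncertain.

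Among the 12 lowest were Elane, Ctsg, Prtn3 and Mpo. Ngfr, the low-affinity nerve growth factor receptor gene (chr11:95568818-95587735), was lowest of the 12, with 0.351 and 0.136 TPM in Ly6G+ cells and 160 and 136 TPM in HSPC (-6.87 ± 0.12 SE, adjusted p = 2.45e-07). Mecom, a stem cell transcription factor gene (chr3:29951296-30548008), had 0.0527 and 0.0109 TPM in Ly6G+ cells and 68.5 and 47.3 TPM in HSPC (-5.78 ± 0.14 SE, adjusted p = 4.44e-07). Both genes were near 0 in Ly6G+ cells, so the size of the fall depends on the 1 TPM added. Both were included through the HSPC libraries alone, as was Slc4a8 below, so that rule itself requires a difference. Mecom was at a higher level than Kit and Cd34 in HSPC. The metallothionein genes Mt1 and Mt2, which bind zinc, fell by 4.11 and 3.58, with 11.03 and 13.7 TPM of Mt1 in Ly6G+ cells and 238 and 239 TPM in HSPC. Dmkn, a secreted protein gene best known from skin, had 2.63 and 1.78 TPM in Ly6G+ cells and 78.0 and 79.6 TPM in HSPC (-4.60 ± 0.15 SE), and Slc4a8, a bicarbonate transporter gene, fell by 3.64. Cep85, a centrosomal protein gene, had 227 and 101 TPM in Ly6G+ cells and 2037 and 1530 TPM in HSPC (-3.48 ± 0.43 SE), and Lsm7, an RNA-binding protein gene of the decay and splicing complexes, fell by 3.47.

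**Figure D4:**
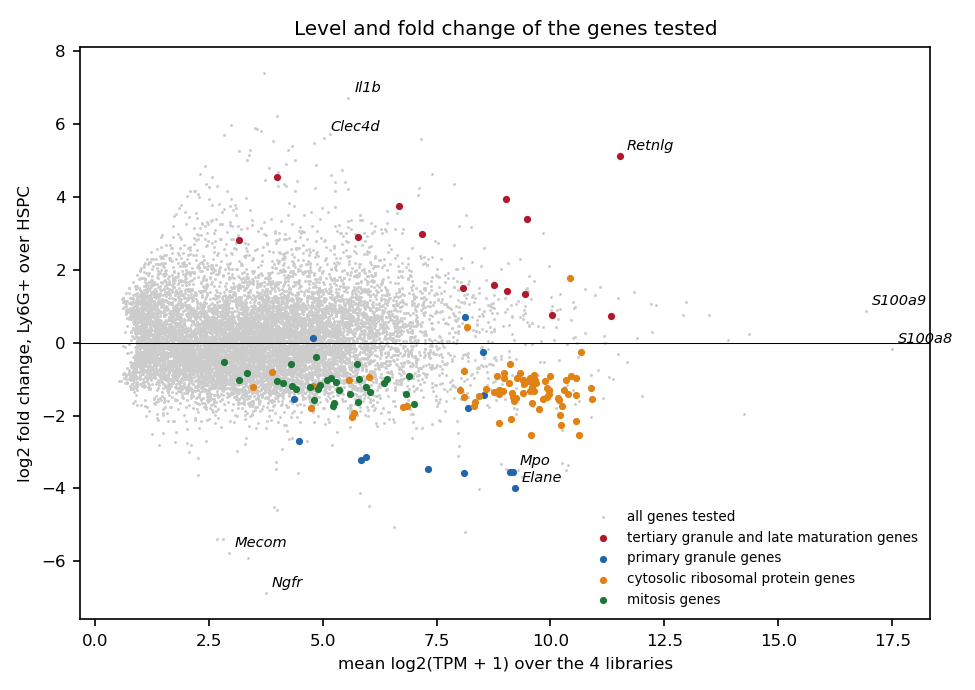
Mean log2(TPM + 1) over the 4 wild type libraries against log2 fold change of Ly6G+ cells over HSPC, 1 point per gene, with 4 gene lists in colour and leading genes named. Il1b (6.71) and Ngfr (-6.87) mark the ends among the labelled genes, Retnlg combines a high level with 5.11, and S100a8 (-0.18) and S100a9 (0.87) lie at the far right; Rps12 is left out.

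Markers of other blood cells differed too, and their part in the other results was not tested. Their counts are to be read against 36.2% higher and 35.6% lower of all genes. Of 25 B-lineage and plasma cell genes tested 14 rose and 10 fell, with a median of 0.92, and the summed level was 12339 and 11405 TPM in Ly6G+ cells and 43124 and 44497 TPM in HSPC. Ighm, the heavy chain gene of IgM, had 1330 and 1483 TPM in Ly6G+ cells and 311 and 286 TPM in HSPC (2.29 ± 0.13 SE). The genes of antibody-secreting cells had the opposite direction: Igkc had 10211 and 9231 TPM in Ly6G+ cells and 38636 and 40304 TPM in HSPC, Ighg2b fell by 5.18 and Jchain, which joins antibody subunits, by 1.81. All immunoglobulin genes together took 1.63% and 1.55% of the TPM in Ly6G+ cells and 6.41% and 6.63% in HSPC. With all 12 libraries 7 members were higher and 4 lower. Of 14 T and natural killer cell genes tested 12 rose and 1 fell, with a median of 1.68 and summed levels of 75.2 and 94.3 TPM in Ly6G+ cells and 15.6 and 19.7 TPM in HSPC; Cd3e, Cd8a and Cd4 lay under the level needed for testing, and many others passed it through the Ly6G+ libraries, so that 2 were called higher among genes at 1 TPM or more in all 4 libraries. Of 15 mast cell, basophil and eosinophil genes 9 rose and 3 fell, with a median of 1.28 and sums of 1084 and 896 TPM in Ly6G+ cells and 355 and 348 TPM in HSPC. The basophil protease genes Prss34 and Mcpt8 rose by 4.40 and 2.68, while the eosinophil granule genes Prg2 and Epx fell by 0.99 and 0.85. The eosinophil-associated ribonuclease gene Ear2 had 138 and 150 TPM in Ly6G+ cells and 17.4 and 18.8 TPM in HSPC (2.98 ± 0.13 SE), so the eosinophil genes included calls in both directions.

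Of 13 dendritic and MHC class II genes 8 rose and 1 fell, with a median of 1.15 and sums of 588 and 699.7 TPM in Ly6G+ cells and 274 and 261 TPM in HSPC. H2-Aa, an MHC class II chain gene, had 103 and 124 TPM in Ly6G+ cells and 26.4 and 25.3 TPM in HSPC. Of 21 monocyte and macrophage genes 9 rose and 2 fell, against 36.2% higher and 35.6% lower of all genes. Their median was 0.64, with overlapping sums of 1790 and 1917 TPM in Ly6G+ cells and 1871 and 1825 TPM in HSPC. Csf1r, the receptor of macrophage colony-stimulating factor, rose by 1.96, and F13a1, a monocyte transglutaminase gene, fell by 1.18, while the macrophage complement gene C1qa had 7.59 and 23.2 TPM in Ly6G+ cells and 12.1 and 11.9 TPM in HSPC. Ly6G+ library 1 was below and library 2 above both HSPC libraries for C1qa, and 16 members of the list were called higher without library 1. Of 20 erythroid genes 8 rose and 6 fell, near the shares of all genes (36.2% higher and 35.6% lower). Their median was 0.13, and 0.001 under upper-quartile scaling. Their sums were 1375 and 1142 TPM in Ly6G+ cells and 966 and 942 TPM in HSPC. Alas2, a gene of haem synthesis, rose by 1.62, and Gata1 and Epor fell by 0.93 and 0.99. Of 11 megakaryocyte and platelet genes tested 6 rose and 2 fell, with a median of 0.51 and sums of 344 and 344 TPM in Ly6G+ cells and 182 and 170 TPM in HSPC; the platelet chemokine gene Pf4 fell by 1.99. Of 3 stromal and endothelial genes tested 2 fell, Eng by 1.52 and Pecam1 by 0.68, and 12 of the 15 written, Col1a1 and Cxcl12 among them, lay under the level needed for testing. With all 12 libraries no erythroid gene was called either way. That fit called 10 T and natural killer cell, 7 dendritic, 5 monocyte, 4 basophil group and 2 platelet genes higher, none of them lower, and 1 stromal gene lower.

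The same leading genes were read in the other 8 libraries as a description, with no test. Retnlg had 4706 and 21390 TPM in double mutant Ly6G+ cells and Cxcr2 had 100.4 and 544 TPM there, so the second library was near the wild type Ly6G+ level and the first below it. Across the 8 HSPC libraries Retnlg lay between 328 and 1006 TPM, and every Ly6G+ library was above every HSPC library. Mpo had 293 and 508 TPM in double mutant Ly6G+ cells, and lay between 1426 and 5049 TPM across the HSPC libraries. Ngfr did not follow the cell type, with 62.1 and 83.7 TPM in double mutant Ly6G+ cells and 0.0300 and 0.0431 TPM in CBL mutant HSPC. Other genes overlapped as well. Ly6g had 389 TPM in double mutant Ly6G+ library 1 and up to 586 TPM in HSPC. Clec4d had 17.6 TPM in that Ly6G+ library and 27.1 and 22.2 TPM in double mutant HSPC. Cep85 lay between 101 and 1746 TPM in Ly6G+ cells and between 372 and 2437 TPM in HSPC. Mecom had 0.510 and 0.786 TPM in double mutant, 4.15 and 1.62 TPM in RUNX1 mutant and 20.2 and 13.8 TPM in CBL mutant HSPC, all under both wild type HSPC libraries. In double mutant Ly6G+ cells Mecom had 0.165 and 0.165 TPM, and every HSPC library of the series was above every Ly6G+ library for this gene.

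**Figure D5:**
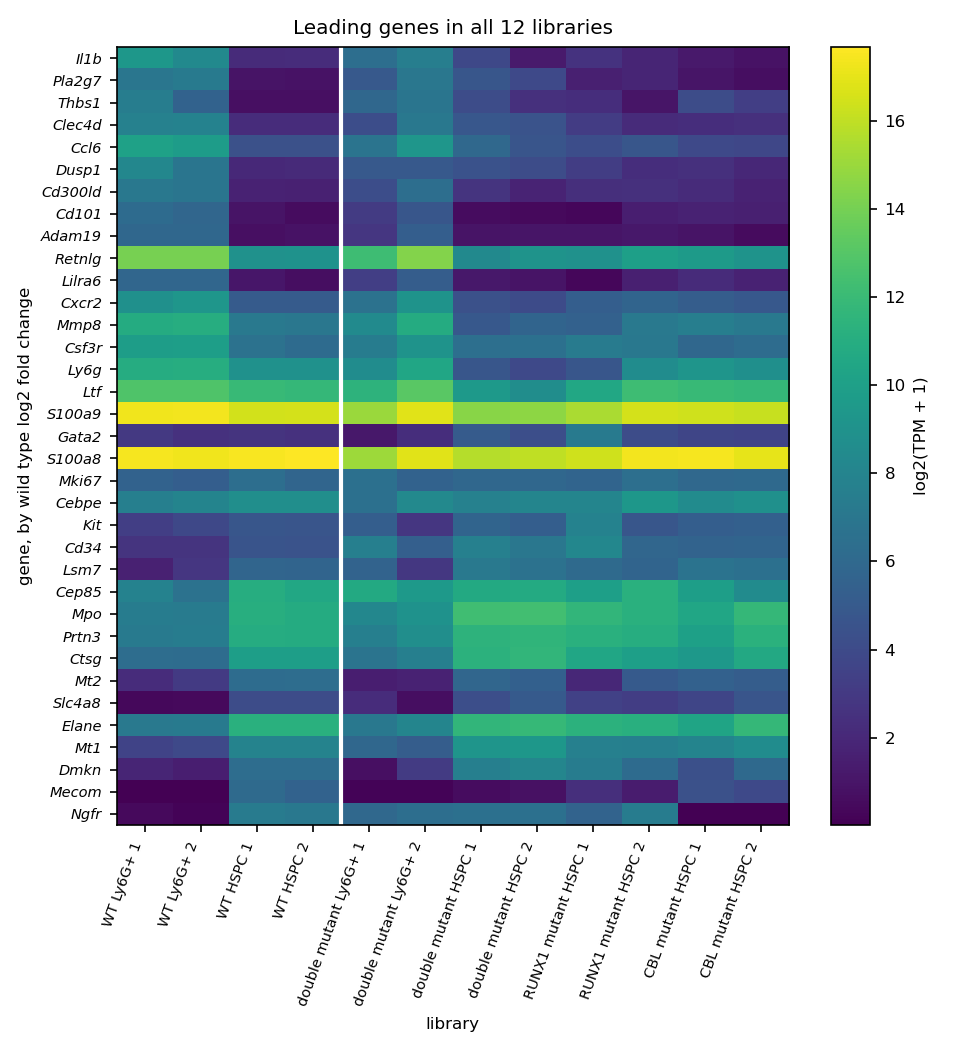
Levels as log2(TPM + 1), in colour, of 35 leading and marker genes (rows, ordered by the wild type log2 fold change) in all 12 libraries (columns), with the wild type libraries left of the white line. Retnlg, Cxcr2 and Mmp8 are brighter in Ly6G+ columns and Mpo, Elane and Prtn3 in HSPC columns, while Ngfr is dark in wild type Ly6G+ cells and in CBL mutant HSPC.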

How the data were processed

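Messenger RNA of 12 libraries was deposited as 1 table of TPM, which its name calls counts. The tools were kallisto, CASAVA 1.8 and bcl2fastq on build mm10, per the submitters' processing notes; the annotation and the summing of transcripts to genes are not given in the sources used here. The authors' TPM hold no read counts, so depth is unknown, and the 4 wild type libraries summed to between 973031 and 981994.

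TPM were scaled with unweighted trimmed means (TMM, trimming 0.3 of log ratios and 0.05 of levels) and taken as log2(TPM + 1), which understates the changes of low genes. limma 3.58.1 in R 4.3.3, with trend and robust moderation, was fitted to the 4 wild type libraries (2 residual degrees of freedom), two-sided, with Benjamini-Hochberg adjustment over all 11493 genes. A TPM per library in the text is the deposited one, and overlap between groups was judged on these unscaled values. Symbols were found for 27458 genes (94.7%), and coordinates are those of the GRCm38 annotation. The method was tested on simulated data.

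The members and the 30 gene lists were chosen with earlier results of these data known. Named genes were 14 fixed markers, the 12 largest changes in each direction among genes called at a mean log2 level of at least 2 with no overlap between groups (without predicted genes, pseudogenes and immunoglobulin or T cell receptor segments), and up to 4 members per list and direction with the smallest p; other members of a list were named after their values were seen. Alternatives were other scalings, pseudocounts, filters, sets of libraries, moderation and a replicate block, and a length correction (lowess on log length, span 0.3) added after the data were seen.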

Additional observations from a re-analysis of the deposited data

How the results depend on the processing

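The counts of 4165 higher and 4090 lower genes moved by over 1.5 times under 2 alternatives: all 12 libraries gave 2642 and 2622, and a test against a log2 change of 1 gave 971 and 490. Leaving out each library in turn gave 3416 to 4298 higher and 3359 to 3690 lower; the library alone in its group is then assumed to vary like the other group. Without the RUNX1 mutant HSPC and double mutant Ly6G+ groups, whose replicates stand apart, 8 libraries gave 4259 and 3807. A replicate block gave 4127 and 4010; deviations of same-numbered libraries had a correlation of -0.012 across genes, so the numbers are not taken as pairs. Upper-quartile scaling gave 3666 and 4678 and a median of -0.13 over all genes. The length correction, added after the data were seen, gave 4113 and 4174. None of the named genes that could be fitted (156 to 179 of 179) changed direction in the 19 alternatives; 52 lost the call with all 12 libraries, 64 against a log2 change of 1, 7 with 8 libraries, 3 with the length correction and 12 without at least 1 of the 4 libraries. These 179 are the genes named by rule, and list members named after their values were seen, such as Ctsc and C1qa, are not among them. Most of the 179 were chosen by their change or p in these same 4 libraries, which the alternatives fit again. A kept direction is therefore no further support. Among genes at 1 TPM or more in all 4 libraries, fewer members were tested, and B-lineage, dendritic and T cell calls higher were 9, 4 and 2. No list median changed sign with RLE, upper-quartile or no scaling or with the length correction. Depth cannot be stated for TPM, so no limit of detection is given.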

Other observations

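Over all 12 libraries, 3 genes were listed under 0.1 TPM in each of the 8 HSPC libraries and at 10 TPM or more in each of the 4 Ly6G+ libraries, whatever the genotype: Rps12, Traf7 and the processed pseudogene Gm10241. They were chosen after their values were seen. Traf7, a ubiquitin ligase gene, was listed at 11.4 and 12.1 TPM in wild type and 18.9 and 11.3 TPM in double mutant Ly6G+ cells, and at no more than 8.84e-09 TPM in any HSPC library. Gm10241 was listed at 79.1 and 47.3 TPM in wild type and 134 and 62.3 TPM in double mutant Ly6G+ cells and at 0 in all 8 HSPC libraries. Rps12 had 3431 and 1112 TPM in double mutant Ly6G+ cells. No gene had the opposite pattern. A value of 0 in a table of TPM can be a failed estimate, which was not tested here. As these genes split by cell type, a difference in handling or quantification cannot be told apart from one in the cells.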
